A study of Mus musculus with 6 samples.

Results

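The respiratory chain subunits encoded in the nucleus were examined as a group in C2C12 cells that lack or carry *Hnrnpa2b1*. Genes were chosen by name alone, as the Nduf, Sdh, Uqcr, Cyc1 and Cox4 to Cox8 genes of complexes I to IV without pseudogenes, and had to reach 10 counts in at least 3 libraries. Of 46078 rows in the count table, 69 matched the names and 65 reached the minimum. These were 35 genes of complex I, 4 of complex II, 9 of complex III and 17 of complex IV, where Ndufa4 and Ndufa4l2 were placed with complex IV, to which Ndufa4 belongs. The 4 rows left out were Cox8c with 0 counts, Cox4i2 with at most 1, Cox6b2 with at most 3 and a second Uqcrc1 row with 0. All 65 members passed the filter on low counts, and Cox7b2 passed through its WT libraries alone.

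C2C12 is an immortalized mouse myoblast line whose cells leave the cell cycle and fuse into myotubes when serum is withdrawn. All cells had a day of growth and 48 hr of differentiation under serum withdrawal with ITS supplementation. The KO cells came from transfection with Cas9 and a guide RNA against *Hnrnpa2b1*, which encodes an RNA-binding protein, and puromycin selection. The methods describe 3 independent clones of KO and of WT cells detached with cloning rings, without stating which clone gave which library. Control myoblasts in the protein blot of the study received a scrambled guide RNA, and whether the WT clones sequenced here did is not stated. Libraries of ribosome-depleted total RNA, 3 of KO cells (KO1 to KO3) and 3 of WT cells (WT1 to WT3), were sequenced. Values by library are given in the order of the replicates 1 to 3, and p-values measure the spread between these libraries.

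The respiratory chain sits in the inner mitochondrial membrane and passes electrons from NADH and succinate to oxygen. Complex I oxidizes NADH, complex II oxidizes succinate, complex III moves electrons from ubiquinol to cytochrome c, and complex IV reduces oxygen. Complexes I, III and IV pump protons, and the ATP synthase uses the gradient. Most subunits are made from nuclear genes and imported, while a few hydrophobic ones are made inside the organelle. Differentiating muscle cells increase their mitochondrial content and replace some complex IV subunits with muscle isoforms, among them Cox6a2, Cox7a1 and Cox8b.

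The KO libraries held between 36417517 and 40558740 counted reads and the WT libraries between 33605258 and 39134651. Members took between 0.570% (KO3) and 1.03% (WT3) of the reads of a library, with 219280 and 404742 counts in these libraries. RNA of *Hnrnpa2b1* did not separate the genotypes. CPM, the counts of a gene relative to the library total and scaled by TMM factors, were 159, 195 and 248.5 in KO and 225, 229 and 252 in WT, so that RNA counts do not check the genotype (log2 fold change −0.23, SE 0.18, adjusted p = 0.381, edgeR). The study checked the knockout of the clones at the protein level, by immunofluorescence and Western blot. Myotube markers were present in all 6 libraries, with Myog at 1005 CPM or more.

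The members were shifted down in KO cells. Of 65 genes, 61 had a negative log2 fold change of KO over WT, and 19 (29.2%) were called lower at an adjusted p under 0.05 in edgeR's quasi-likelihood test, against 10.6% of all 14828 genes tested. A gene is said to be called for this fit, with TMM scaling, the filter on low counts and all 6 libraries, unless another fit is named. No member was called higher in it, against 12.1% of all genes, although 2 members were higher at an unadjusted p under 0.05. DESeq2 called 1 higher, and edgeR 1 with library totals alone, 2 without the filter and 1 each without KO1 and without KO3. The median log2 fold change of the members was −0.48, against 0.03 for all genes. In 33 members every KO library lay below every WT library, which is 50.8% of members and compares with 21.6% of all genes. In 1 member, Ndufb2, every KO library lay above, against 22.7% of all genes. Cox7b2, which passed the filter through WT alone, had to differ and supports no count, and without it 18 of 64 members (28.1%) were called lower. RNA in bulk cannot tell fewer cells of a type from less RNA per cell.

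The number of calls varied with the libraries included. The 19 calls became 32 without KO1, 11 without KO2, 8 without KO3 and 2 without WT1 or without WT3, whereas 13 members were called without WT2. The share of all genes called lower moved too, from 15.1% without KO1 to 3.05% without WT1. Without WT1 the members' share was 3.08% and without WT3 it was 3.08% against 4.4% of all genes, which is close to the background. Each of the 19 called genes had a negative log2 fold change in all alternatives run, and 58 of 65 members did so in all 6 fits that left out a library. Apart from Cox7b2, the call that held in all of these fits was Ndufs4. With all libraries, the calls of Uqcr10, Uqcrq, Sdhd, Ndufs8, Ndufv1, Ndufa13, Ndufa11 and Ndufb6 ended when the median change of their 10 Mb region was removed. Their log2 fold changes then lay between −0.75 and −0.59. In the same fit Ndufb11, Ndufa12 and Uqcrb were called lower, and the median of the members was −0.54. Cox5a, Cox7a2, Cox8a, Cyc1, Sdhc and Ndufa6 were not called, but were lower at an adjusted p under 0.05 in DESeq2, in limma on filtered TPM and in edgeR without the filter.

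**Figure D1:**
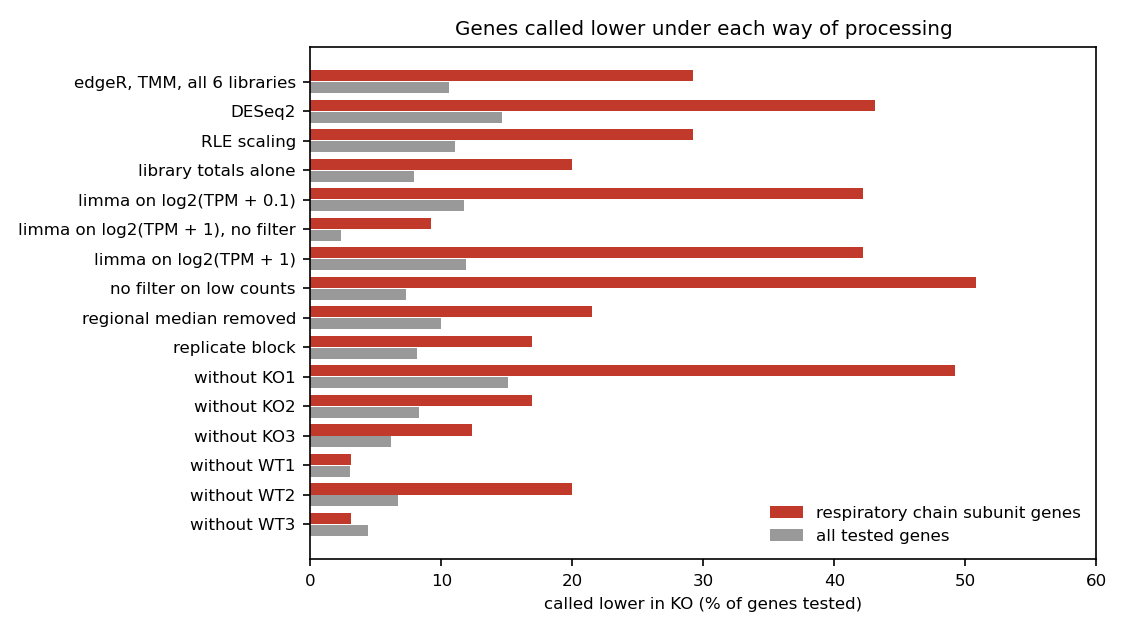
Percent of genes called lower in KO (horizontal axis) among the respiratory chain subunit genes (red bars) and among all tested genes (grey bars), for edgeR with all libraries and 15 alternatives. The red bar is well above the grey bar in the settings with all libraries, is nearly equal without WT1 (3.08% and 3.05%) and is shorter without WT3 (3.08% and 4.4%).

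The libraries of a genotype differed among themselves. Relative to the WT mean, the median member was at −0.28 in KO1, −0.37 in KO2 and −0.83 in KO3 on the log2 CPM scale, and at 0.10, −0.27 and 0.17 in WT1 to WT3. KO3 was thus the lowest library and WT2 lay near KO1. KO1 had 36 members below every WT library (55.4%, against 35.6% of all genes). KO2 had 45 such members (69.2%, against 37.1%) and KO3 60 (92.3%, against 40.2%). KO3 had the lowest level of all 6 libraries in 57 members, and WT2 had the lowest WT level in 64. Summed over the members, CPM were 8194, 7287 and 5353 in KO and 10488, 8095 and 10908 in WT. The KO mean was 70.6% of the WT mean, and KO1 lay above WT2. By complex, the KO mean of summed CPM was 71.4% of the WT mean for complex I, 66.7% for complex II, 65.6% for complex III and 74.0% for complex IV.

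**Figure D2:**
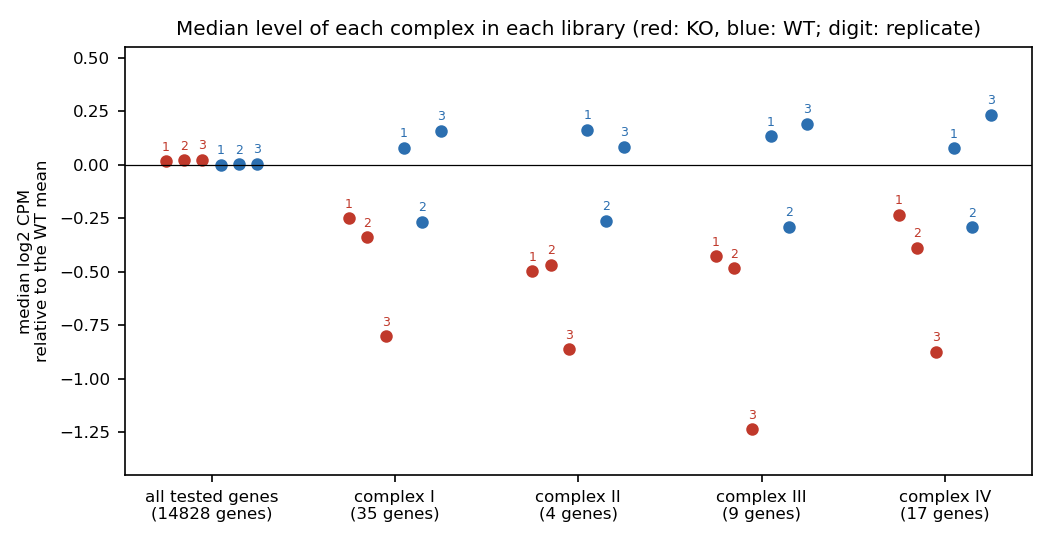
Median log2 CPM relative to the WT mean (vertical axis) of all tested genes and of the members of each complex, 1 point per library (red KO, blue WT, digit for the replicate). All tested genes lie near 0 in every library, KO3 is lowest in each complex, and WT2 lies below WT1 and WT3.

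In complex I, 10 of 35 genes (28.6%) were called lower and 0 higher, against 10.6% and 12.1% of all genes, with a median log2 fold change of −0.47 that was −0.29 without KO3. Calls numbered 16 without KO1 (15.1% of all genes lower), 6 without KO2 (8.29%), 4 without KO3 (6.13%) and 5 without WT2 (6.68%). There was 1 call of 35 without WT1 (3.05%) or without WT3 (4.4%), which is near or below the share of all genes. Ndufs4, an accessory subunit that stabilizes the part that binds NADH, had the clearest difference. Its CPM were 40.2, 38.8 and 36.4 in KO and 99.4, 80.3 and 114 in WT, so the KO libraries lay close together and far below the WT libraries. The log2 fold change was −1.35 (SE 0.15, adjusted p = 0.00225, edgeR), which left KO at 39.3% of WT. The gene (ENSMUSG00000021764) lies on chromosome 13 at chr13:114287795-114388094 in GRCm38.

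The 7 core subunits of the nucleus carry the flavin and the iron-sulfur clusters, and 3 of them (42.9%, against 10.6% of all genes) were called lower. Ndufs7, which holds the last cluster before ubiquinone, had CPM of 70.1, 65.4 and 33.6 in KO and 140, 95.6 and 126 in WT, a log2 fold change of −1.10 (SE 0.28, adjusted p = 0.029). Ndufs8, another cluster subunit, had CPM of 141, 156 and 85.1 in KO and 240, 202 and 251 in WT, with a log2 fold change of −0.86 (SE 0.23, adjusted p = 0.0331). Ndufv1, which binds NADH and flavin, had CPM of 234, 219 and 134 in KO and 367, 279 and 378 in WT, with a log2 fold change of −0.80 (SE 0.24, adjusted p = 0.0444). The genotypes did not overlap in these genes, and KO3 was the lowest library in each. Without WT1 or without WT3 none of these 3 calls held, and those of Ndufs8 and Ndufv1 were also lost without WT2 and that of Ndufv1 without KO2 or without KO3. Among the other core genes, Ndufv2, Ndufs3 and Ndufs1 were not called, at log2 fold changes of −0.41, −0.35 and −0.21.

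Among the 28 accessory genes of complex I, 7 (25.0%, against 10.6%) were called lower. Ndufa13, a subunit also known as Grim-19, had CPM of 213, 175 and 106 in KO and 340, 268 and 330 in WT, and its call (log2 fold change −0.93, SE 0.25, adjusted p = 0.0349) held without KO1 and without KO3. The log2 fold changes of Ndufa11, Ndufa5, Ndufb6, Ndufa9 and Ndufv3 lay between −0.77 and −0.65. Ndufa11, a membrane subunit at the contact with complex III, had CPM of 36.0, 35.0 and 20.99 in KO and 57.7, 44.4 and 54.5 in WT, and its call held only when KO1 was the library left out. The Ndufa genes gave 4 calls of 12 (33.3%) and a median of −0.50. The Ndufb genes, most of which sit in the membrane arm, gave 1 of 10 and a median of −0.44, against 10.6% of all genes, and the difference between these groups was not tested. Ndufs5 was nearly level, with CPM of 91.1, 92.7 and 89.3 in KO and 99.3, 92.0 and 93.5 in WT (log2 fold change −0.06, SE 0.11).

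Ndufb2, Ndufb7 and Ndufa1 had positive log2 fold changes that were not called. Ndufb7 had CPM of 197, 173 and 106 in KO and 114, 82.1 and 116 in WT (log2 fold change 0.61, SE 0.24, adjusted p = 0.108, and 0.0172 without the filter), and KO3 lay among the WT libraries. Without KO3 it was called higher (log2 fold change 0.83, adjusted p = 0.0332, edgeR). The median of its 10 Mb region was also 0.61, and with the regional median removed the gene was near 0. Ndufb2 had CPM of 8.90, 10.9 and 8.45 in KO and 5.81, 4.33 and 6.76 in WT (log2 fold change 0.74, SE 0.23, adjusted p = 0.0505) and was called higher without KO1 (adjusted p = 0.047), in DESeq2 (0.0181), with library totals alone (0.033) and without the filter (0.0457). Its count is uncertain, since its mean WT TPM was 34.8 times its mean WT CPM per kb of exon. Its row overlaps Gm42420 on the same strand, and the part of this overlap in the count was not tested. On the TPM scale, which corrects for transcript length, the direction turned, with a KO mean of 30.4 and a WT mean of 34.8.

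**Figure D3:**
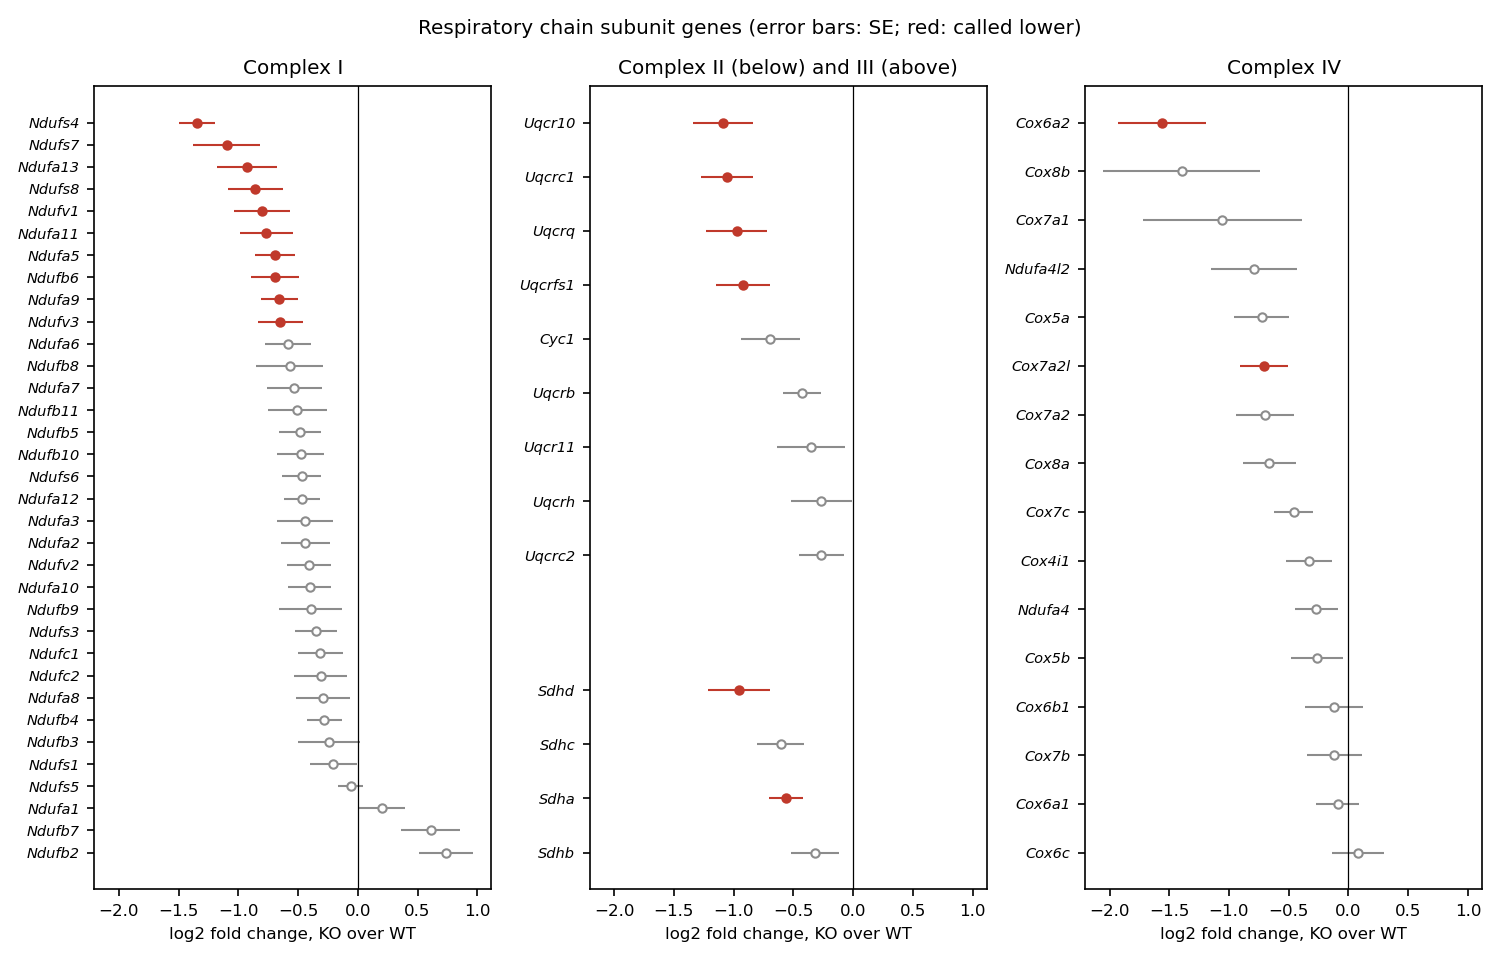
Log2 fold change of KO over WT (horizontal axis, error bars SE) of respiratory chain subunit genes by complex, with genes called lower in red and the others as open circles. Points lie left of 0 except Ndufb2, Ndufb7, Ndufa1 and Cox6c. Cox7b2 is left out because its KO counts are near 0.

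Promoter sequences of Ndufs7 and Ndufa11 are shown because both genes were called lower and hold a listed motif close to the start. They are the 200 bases before the start site from RefSeq on GRCm38.p6, 5′ to 3′. In Ndufs7 (chr10:80249249-80249448, plus strand) the capitals mark TATAAA, 99 bases before the start. The deposited row of Ndufs7 starts at 80249121, so these bases precede the RefSeq start and not the start of that row. In Ndufa11 (chr17:56717562-56717761, plus strand) they mark 2 overlapping matches, 1 on each strand, to GCATGCGC, the letters of the NRF1 motif, at 60 and 58 bases before the start.
Ndufs7: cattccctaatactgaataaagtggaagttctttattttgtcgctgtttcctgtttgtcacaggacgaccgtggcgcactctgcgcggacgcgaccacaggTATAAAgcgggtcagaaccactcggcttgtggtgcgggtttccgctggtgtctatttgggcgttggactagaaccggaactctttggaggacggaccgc
Ndufa11: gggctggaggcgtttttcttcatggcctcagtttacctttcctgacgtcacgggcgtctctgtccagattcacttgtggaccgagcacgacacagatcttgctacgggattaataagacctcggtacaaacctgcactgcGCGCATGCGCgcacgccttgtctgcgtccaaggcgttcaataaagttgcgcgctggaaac

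In complex II all 4 subunit genes had negative log2 fold changes, and Sdhd and Sdha were called lower, against 10.6% of all genes. Both calls were lost without KO2, without KO3, without WT1 or without WT3. With all libraries, both were also lost in limma on unfiltered TPM. The Sdha call was lost with library totals alone or the replicate block, and the Sdhd call with the regional median removed. Sdhd, a membrane anchor that helps to bind ubiquinone, had CPM of 92.4, 85.5 and 50.8 in KO and 181, 111 and 152 in WT. The log2 fold change was −0.96 (SE 0.26, adjusted p = 0.0351), and no KO library reached a WT library. Sdha, the flavoprotein that oxidizes succinate, had CPM of 258, 254 and 243 in KO and 401, 321 and 394 in WT, with a log2 fold change of −0.56 (SE 0.14, adjusted p = 0.0291). The other anchor Sdhc was at −0.61 (SE 0.19, adjusted p = 0.058) with KO libraries that also lay below all WT libraries, and the iron-sulfur subunit Sdhb was at −0.32 (SE 0.20, adjusted p = 0.271). The Sdhd promoter is shown for its match to the ETS letters, CCGGAAG, on the opposite strand 46 bases before the start, in capitals (chr9:50603850-50604049 in GRCm38.p6, minus strand, from RefSeq).
Sdhd: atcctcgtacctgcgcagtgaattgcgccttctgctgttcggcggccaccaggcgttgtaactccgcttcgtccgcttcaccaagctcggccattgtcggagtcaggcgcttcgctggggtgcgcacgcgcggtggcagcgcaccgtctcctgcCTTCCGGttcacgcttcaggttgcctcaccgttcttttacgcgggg

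Complex III had negative log2 fold changes in all 9 genes, as did 7070 of all 14828 genes, and a median of −0.69. Of the 9 genes, 4 (44.4%) were called lower, against 10.6% of all genes. No call was left without WT1 or without WT3. Uqcr10, a small subunit, had CPM of 72.5, 54.7 and 36.0 in KO and 128, 95.5 and 125 in WT, with a log2 fold change of −1.09 (SE 0.25, adjusted p = 0.0208). Uqcrc1, a large core protein that faces the matrix, had CPM of 244, 201 and 147 in KO and 434, 332 and 464 in WT, which left KO at 48.1% of WT (log2 fold change −1.06, SE 0.22, adjusted p = 0.0156). In Uqcr10 and Uqcrc1 the highest KO library lay below the lowest WT library, and both calls held without any single KO library or WT2. With the regional median removed Uqcrc1 kept its call (adjusted p = 0.0247) and Uqcr10 did not (log2 fold change −0.74, adjusted p = 0.0712). Uqcrc2, the other large core protein, was at −0.27 (adjusted p = 0.326) and its genotypes overlapped.

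Uqcrq, which lies beside cytochrome b, had CPM of 77.1, 53.7 and 36.2 in KO and 116, 96.8 and 115 in WT, a log2 fold change of −0.97 (SE 0.25, adjusted p = 0.0308) that was also not called without KO2 or without WT2. Uqcrfs1, the Rieske iron-sulfur protein, had CPM of 68.7, 75.8 and 47.9 in KO and 144, 90.8 and 130 in WT, a log2 fold change of −0.92 (SE 0.23, adjusted p = 0.0254) that was also not called without KO3. Both genes thus had separate genotypes. Cyc1, the cytochrome c1 that hands electrons to cytochrome c, was at −0.69 (SE 0.24, adjusted p = 0.0763). Uqcrb, Uqcr11 and Uqcrh lay between −0.43 and −0.27 and were not called.

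**Figure D4:**
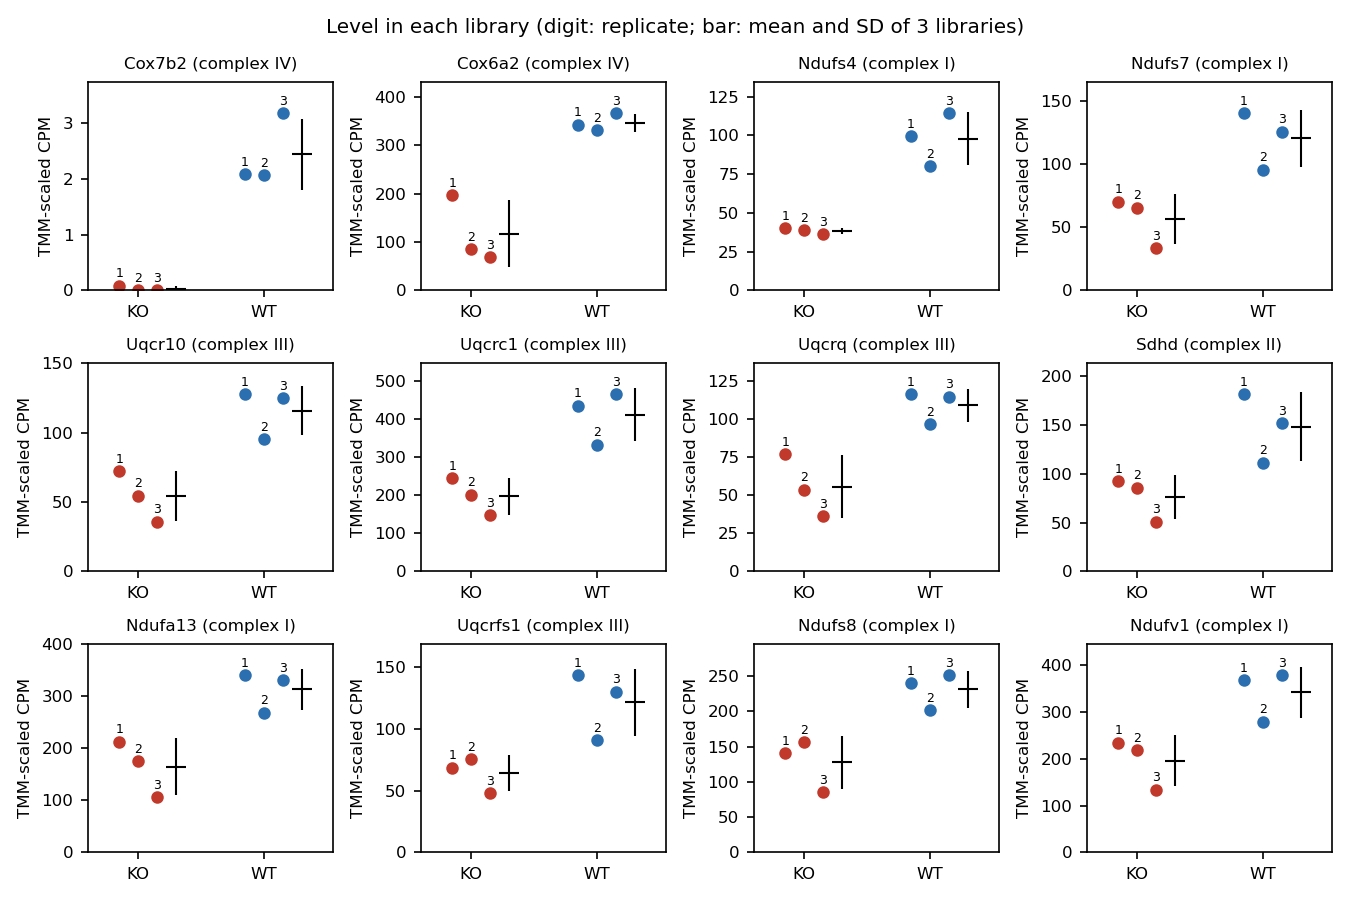
TMM-scaled CPM (vertical axes from 0) of the 12 called genes with the largest absolute log2 fold change, 1 point per library (digit for the replicate), with the mean and SD of 3 libraries beside them. KO points (red) lie below WT points (blue) in every panel, and KO3 is the lowest or shares the lowest level.

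In complex IV, 3 of 17 genes (17.6%) were called lower, against 10.6% of all genes, and the median was −0.66. Without Cox7b2 these were 2 of 16 (12.5%), which is near the share of all genes, and a median of −0.56. The number of 3 became 8 without KO1 (15.1% of all genes lower) and 1 without KO3 (6.13%), without WT1 (3.05%) or without WT3 (4.4%). The calls were Cox7b2, Cox6a2 and Cox7a2l, which are isoforms or relatives of other subunits. Of the 13 genes left when Cox7b2 and the muscle isoforms are set aside, 1 was called (7.69%), with a median of −0.33. The core catalytic subunits of complex IV are made in the mitochondrion, so the nuclear genes here encode the subunits around them.

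Cox6a2, the striated muscle form of subunit 6a, lies at chr7:128205436-128206366 in GRCm38. Its CPM were 197, 85.7 and 68.8 in KO and 342, 330 and 366 in WT. The WT libraries lay close together and the KO libraries were spread over a wider range below them. The log2 fold change was −1.56 (SE 0.37, adjusted p = 0.0226), and −2.17 without KO1. The call was lost without KO2, without KO3, without WT1 or without WT3. Its partner Cox6a1, the form of other tissues, had CPM of 159, 149 and 135 in KO and 151, 126 and 194 in WT (log2 fold change −0.09, SE 0.18). By TPM, which corrects for length, Cox6a2 made up 52.2%, 33.6% and 31.2% of the pair in KO and 66.6%, 69.8% and 62.4% in WT. The mean share was 39.0% ± 11.5 in KO and 66.3% ± 3.69 in WT (SD, n = 3 each), and the exact two-sided permutation p was 0.1, the smallest that 3 against 3 allows.

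Cox7b2, a relative of Cox7b known from testis, gave 3, 0 and 0 counts in KO and 72, 68 and 118 in WT. This is a low level in both genotypes, with WT CPM of 2.08, 2.07 and 3.18. The KO counts did not exceed the floor of 3 counts in a library, so only a bound is given. With KO set to that floor, the WT mean was at least 32.47-fold higher. Cox7b itself was at −0.12 (SE 0.23), a sign that turned with a library left out. Cox7b2 was 2.79% ± 0.356 of the TPM of this pair in WT and at most 0.0697% in a KO library.

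Cox7a2l, a protein that joins complexes III and IV into supercomplexes, had CPM of 132, 162 and 100 in KO and 250, 191 and 201 in WT (log2 fold change −0.70, SE 0.20, adjusted p = 0.0414). The call was lost without KO3 and without any of the WT libraries. With all libraries, it was also lost with library totals alone, with the replicate block and in limma on unfiltered TPM. Cox8b and Cox7a1, the other muscle isoforms, were not called in edgeR with all libraries and the filter, and were called without KO1 and without the filter. Filtered TPM in limma also called Cox8b. Cox8b had CPM of 25.8, 6.66 and 3.49 in KO and 34.6, 20.5 and 39.2 in WT, a log2 fold change of −1.40 (SE 0.66, adjusted p = 0.155), with KO1 among the WT libraries, and −2.63 without KO1 (adjusted p = 0.00178). Cox7a1 had CPM of 6.32, 1.65 and 1.88 in KO and 7.09, 2.35 and 10.9 in WT, with a log2 fold change of −1.05 (SE 0.66, adjusted p = 0.275), and −1.95 without KO1 (adjusted p = 0.0338). Their shares of the Cox8 and Cox7a pairs overlapped between genotypes (exact two-sided permutation p = 0.3 and 0.7). The Cox7a1 difference of −1.70 percentage points became 0.0967 without KO2 and 0.466 without WT3.

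**Figure D5:**
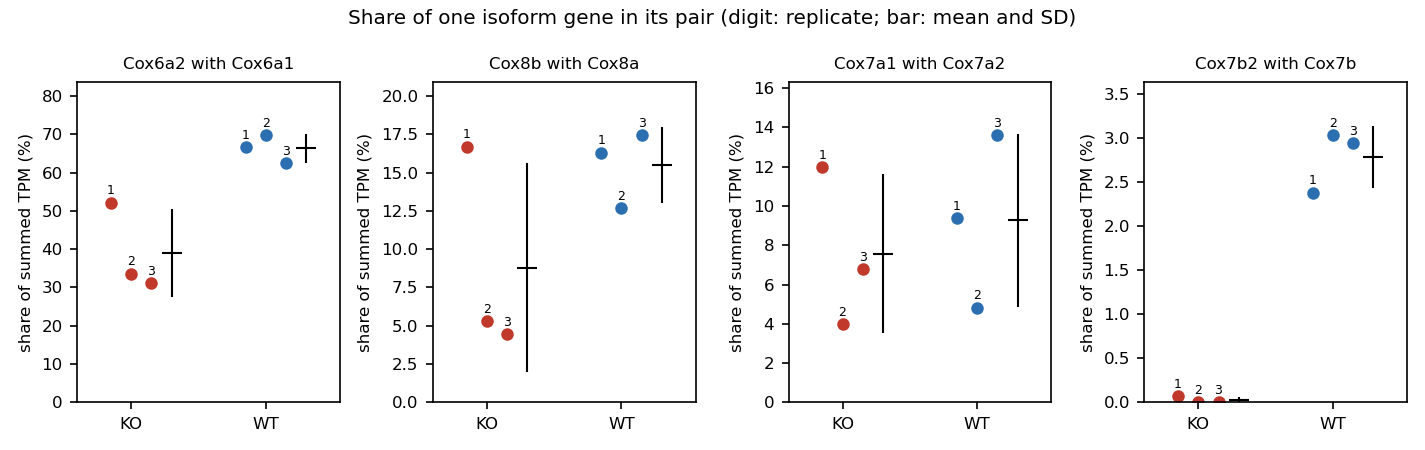
Share of an isoform gene in the summed TPM of its pair (vertical axes, percent) in each library, with the mean and SD of 3 libraries beside the points. KO1 lies among the WT libraries for Cox8b and Cox7a1, and below them but above KO2 and KO3 for Cox6a2.

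The forms of complex IV subunits that most tissues use were not called in this edgeR fit. Cox8a, Cox7a2 and Cox5a were at −0.66, −0.70 and −0.73 with adjusted p of 0.0655, 0.0736 and 0.0542 (edgeR), and in Cox8a and Cox5a the genotypes did not overlap. Like Cox8b and Cox7a1, these 3 genes were called lower without KO1, with adjusted p of 0.0314, 0.0264 and 0.00743 (edgeR), and each was also called in 4 alternatives with all libraries. Cox4i1, the regulatory subunit whose partner Cox4i2 was at most 1 count here, was at −0.33 (SE 0.19) and Cox5b at −0.26 (SE 0.22). Cox6b1 and Cox6c were close to level at −0.12 (SE 0.24) and 0.08 (SE 0.22), and both signs turned with a library left out. Ndufa4 was at −0.27, and Ndufa4l2, a relative induced by hypoxia, at −0.79 (adjusted p = 0.143) from CPM of 1.62, 0.870 and 1.07 in KO and 1.65, 2.65 and 1.86 in WT. The share of Ndufa4l2 in its pair did not separate the genotypes (exact two-sided permutation p = 0.4).

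Levels between members can be compared only per length. On the TPM scale in WT cells, Ndufb9 (362 ± 69.8), Cox6b1 (358 ± 65.8), Cox6a2 (354 ± 2.12), Uqcrh (325 ± 82.5), Cox4i1 (318 ± 37.1) and Uqcrb (316 ± 41.6) had the highest levels (SD, n = 3 each), and neighbours in this order did not differ beyond their spread. Cox6a2 was the third of the members in WT by TPM. By CPM per kb of exon it was the highest in WT, at 509, before Cox8a at 404. In KO the mean TPM of Cox6a2 was 117, while Ndufb9 and Cox6b1 stood at 274 and 327. TPM differed widely within complex I, from Ndufa11 (13.0 ± 1.66) to Ndufb9. By CPM per kb of exon Ndufa11 was not the lowest, at 47.8 in WT against 14.8 for Ndufc1.

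Promoters of members were searched for the motifs of mitochondrial and muscle factors. RefSeq windows from 250 bases before to 50 after the start on GRCm38.p6 were matched for 52 of 65 members and searched on both strands, with no test of the shares. GCATGCGC, the NRF1 letters, was found in 7 members (13.5%) against 2.71% of 32851 promoters in the table. CCGGAAG, the ETS letters bound by Gabpa, was found in 11 (21.2%) against 8.86%, and AAGATGG, the YY1 letters, in 8 (15.4%) against 6.34%. AAGGTCA, the letters for estrogen-related receptors (ERR), was found in 4 (7.69%) against 4.72%. The E-box CAGCTG of myogenic factors was in 5 (9.62%) against 16.3%, and TATAAA in 6 (11.5%) against 13.6%.

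The motifs were also counted by call, without a test. Of the 17 called members with a window, 2 held the NRF1 letters, 3 the ETS letters, 3 the YY1 letters and 1 the ERR letters, against 5, 8, 5 and 3 of the 35 members not called. The E-box was in 0 of the called members and in 5 of those not called. The searched windows of Ndufs7, Ndufa11 and Sdhd hold the TATAAA, NRF1 and ETS letters marked in the bases printed above. The window of Ndufs7 also holds the YY1 letters and that of Sdhd the ERR letters, outside the printed bases. A match describes letters and is not a bound site.

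The transcription regulators of mitochondrial genes were examined beside the members. Of 14 tested, 4 (28.6%) were called lower and 0 higher, against 10.6% and 12.1% of all genes. There were 2 called lower without KO3, without WT1 or without WT3, against 6.13%, 3.05% and 4.4% of all genes. These counts include Esrrg, which passed the filter on low counts through its WT libraries and had to differ, and without it 3 of 13 (23.1%) were called. Ppargc1a, the coactivator PGC-1α that raises mitochondrial gene expression in muscle, had CPM of 2.27, 1.40 and 1.03 in KO and 37.6, 21.4 and 37.9 in WT. The log2 fold change was −4.37 (SE 0.36, adjusted p = 7.28e-04, edgeR) and the call held with each library left out. Esrra, the receptor ERRα through which PGC-1α acts, had CPM of 27.3, 40.6 and 17.1 in KO and 88.3, 50.5 and 74.5 in WT, with a log2 fold change of −1.33 (SE 0.33, adjusted p = 0.0258) that was not called without KO3, without WT1 or without WT3. Esrrg, a related receptor, had CPM of 0.532, 0 and 0.122 in KO and 5.44, 4.69 and 6.01 in WT from 19, 0 and 5 counts in KO and 188, 154 and 223 in WT. Perm1, a muscle regulator downstream of these factors, had a log2 fold change of −1.74 (adjusted p = 0.0384) that was lost without KO2, without KO3, without WT1 or without WT3. The factors named for the NRF1, ETS and YY1 letters were not called, with Nrf1 at −0.32 (SE 0.14), Gabpa at −0.23 (SE 0.14) and Yy1 at 0.29 (SE 0.11).

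Assembly factors, which build the complexes, had more lower than higher calls. Of 38 tested, 8 (21.1%) were called lower and 1 higher, against 10.6% and 12.1% of all genes, with a median of −0.33. The lower calls were 11 without KO1 (15.1% of all genes lower), 5 without KO2 (8.29%) and 3 without KO3 (6.13%). They were 4 without WT2 (6.68%), 1 without WT1 (3.05%) and 2 without WT3 (4.4%). Lyrm7, which delivers the Rieske protein Uqcrfs1 to complex III, had CPM of 1.15, 1.19 and 1.001 in KO and 5.61, 3.14 and 3.91 in WT, with a log2 fold change of −1.92 (SE 0.31, adjusted p = 0.00628) that was called with each library left out. Ecsit, a complex I factor, was at −1.05 (adjusted p = 0.0107, not called without WT1), and Sdhaf3, a complex II factor, at −0.78 (adjusted p = 0.0334, not called without KO3 or any of the WT libraries). Nubpl, which serves the iron-sulfur clusters of complex I, was called higher at 0.66 (adjusted p = 0.0488), and was called in 1 of the 6 fits with a library left out, that without KO3.

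Carriers and the citric acid cycle, which feed the chain, also had more lower than higher calls. Among 15 genes for ubiquinone and cytochrome c, 3 were called lower and 0 higher, against 10.6% and 12.1% of all genes, with a median of −0.41. The lower calls were 5 without KO1 (15.1% of all genes lower), 4 without WT2 (6.68%) and 2 without KO3 (6.13%). They were 1 without KO2 (8.29%) or WT3 (4.4%) and 0 without WT1 (3.05%). The called genes were Coq10a at −1.24, Coq5 at −0.87 and Hccs, the lyase that puts haem on cytochrome c, at −0.79. Hccs was not called without WT1, Coq5 was not called without KO2, WT1 or WT3, and Coq10a was called in 1 of 6 such fits, that without KO1. Cytochrome c itself, Cycs, was at −0.47 (adjusted p = 0.0687). Among 14 genes of the citric acid cycle all had negative log2 fold changes and 3 (21.4%) were called lower, with a median of −0.43. The lower calls were 8 without KO1 (15.1% of all genes lower) and 6 in DESeq2 (14.6%) or with the regional median removed (9.93%). They were 5 without the filter on low counts (7.33%), and 1 without KO2 (8.29%), KO3 (6.13%), WT1 (3.05%) or WT3 (4.4%). Idh3a, a subunit of the dehydrogenase that makes NADH from isocitrate, had CPM of 91.3, 73.0 and 58.8 in KO and 231, 151 and 216 in WT (log2 fold change −1.42, SE 0.22, adjusted p = 0.00558, called with each library left out). Ogdh and Cs were at −0.74 and −0.67, and both calls were lost without KO2, KO3, WT1 or WT3.

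The ATP synthase and the subunits made in the mitochondrion had 0 calls in edgeR with all 6 libraries and the filter on low counts. Of all genes, 10.6% were called lower and 12.1% higher in this fit. The 18 ATP synthase genes had a median of −0.30 (−0.14 without KO3). At an unadjusted p under 0.05, 5 were lower and 0 higher, against 2745 and 3036 of all 14828 genes. DESeq2 called 5 lower, against 14.6% of all genes. With edgeR, 4 were called without the filter (7.33% of all genes lower) and 2 with the regional median removed (9.93%), all lower. Without KO1 4 were called lower (15.1%), and without KO2 1 (8.29%). The 2 and the 1 of 18 were near or below the share of all genes. On log2(TPM + 1) limma called 3 lower, against 11.9%. Of the 13 mitochondrially encoded genes 12 (92.3%, against 52.3% of all genes) had a positive log2 fold change and 1, mt-Co1, named after its values were seen, was at −0.07 (SE 0.43), with a median of 0.45 and 2 higher at an unadjusted p under 0.05. Counts in a library differed widely among the 13 genes, from 13 to 31 for mt-Nd4l up to 409606 to 1017374 for mt-Co1. Each gene weighs the same in the median and the count of signs. The median was 0.25 without KO3, 0.29 without WT1, 0.68 without KO2, 0.85 without WT3 and 0.07 with the regional median, here that of the mitochondrial genome, removed. DESeq2 called 2 higher, where 4373 of all 14828 genes were called in either direction, 2160 of them lower. Without the filter edgeR called 3 higher, where 4538 of all 30252 genes were called, 2218 of them lower. The replicate block gave 2, where 2520 of 14828 genes were called, 1211 of them lower. The fit without KO2 gave 1, where 2695 of 15202 genes were called, 1261 of them lower. On log2(TPM + 1) limma called 1 of 9 higher, where 2394 of all 11691 genes were called, 1390 of them lower. Relative to the WT mean their median was 0.65, −0.18 and 0.87 in KO and −0.31, −0.36 and 0.57 in WT, so the genotypes overlapped. mt-Nd5, a membrane subunit of complex I, had CPM of 1167, 740 and 1874 in KO and 567, 514 and 906 in WT (log2 fold change 0.93, SE 0.37, adjusted p = 0.102). KO3 was thus the lowest library for most nuclear subunits and the highest for the median mitochondrial gene.

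Markers of cell types moved with the libraries as well. The summed CPM of 7 myotube markers were 19237, 7744 and 6988 in KO and 17329, 13511 and 17801 in WT. Of these, 1 of 7, Myl1, was called lower (14.3%, against 10.6% of all genes), though not without KO2, KO3, WT1 or WT3. Without KO1 5 of 7 were called lower, against 15.1% of all genes. Without Acta1, whose highest CPM of the 6 libraries was 7023 in KO1, the sums were 12214, 5191 and 4683 in KO and 13141, 10554 and 13956 in WT, so KO1 lay among the WT libraries. Of 3 myoblast or reserve cell markers, Pax7 and Myod1 were called higher and Myf5 lower, against 12.1% and 10.6% of all genes. The sum of the 3 was 196, 311 and 217 in KO and 124, 155 and 124 in WT. The Pax7 call was lost without KO2, WT1 or WT3, that of Myod1 without WT1 or WT3 and that of Myf5 without KO3 or any of the WT libraries. The sum of 3 markers of cycling cells was 159, 308 and 296 in KO and 154, 166 and 209 in WT. The sum of 4 fibroblast markers ran from 58.7 to 546 in KO and from 61.6 to 129 in WT. Pdgfra was called higher, as were 12.1% of all genes, though not without KO3 or any of the WT libraries. The 4 adipocyte markers had at most 2 counts in any library, the epithelial marker Epcam had at most 1, and the 2 endothelial markers at most 11. The cardiac pair summed to 1.76 to 16.1 in KO and 29.6 to 39.6 in WT, and the leukocyte pair to at most 3.41. The cardiac sum came from Myh6, since Nppa had at most 1 count in a library. The leukocyte sum came mainly from Cd68, since Ptprc had at most 5. The part of these markers in the shift of the members was not tested.

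Member transcripts are short, with a median annotated length of 645 bases. Among other protein-coding genes with transcripts under 1 kb the median log2 fold change was −0.02 and 11.1% of 2170 were called lower. With a mean log2 CPM of 5 or more besides, the median was −0.13 and 13.3% of 946 were called lower. In KO3 the median of these short, abundant genes was −0.28 relative to the WT mean, against −0.83 for the members. The part of length in the shift was not tested.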

How the data were processed

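RNA was measured in 6 libraries, 3 KO and 3 WT, grouped by their titles. The authors aligned reads with STAR, counted them on genes with featureCounts and deposited raw counts without normalization. The deposited TPM values come from StringTie, per the labels' processing notes. The methods name GRCm39 and the notes mm9, whereas 91.0% of deposited gene coordinates match GRCm38, so positions are on GRCm38. Strand use in counting is not given in the sources used here, so overlapping genes on either strand may share reads.

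Counts were scaled with TMM (factors 0.949 to 1.08), filtered with filterByExpr and tested with edgeR 4.0.16 (two-sided quasi-likelihood test, genotype alone, Benjamini-Hochberg over 14828 genes, threshold 0.05) in R 4.3.3. Single shares were compared with exact permutation tests. Counts exceed sampling noise between libraries of a genotype (chi-square per degree of freedom 52.5 to 195), and no library repeats another.

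Alternatives were DESeq2 1.42.0, RLE scaling, library totals, no filter, limma 3.58.1 on log2(TPM + 1) with TPM of at least 1 in 3 libraries, on log2(TPM + 0.1) and without filter, removal of the median of each 10 Mb region with at least 15 genes, a replicate block, and each library left out. Steps were tested on simulated data.

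Members, gene lists and alternatives were chosen with earlier results of these data known. Named genes were the 12 called members with the largest absolute log2 fold change, isoform families, catalytic core subunits, and up to 3 called genes a list and direction. Other members, regulators, markers and Cycs that the text names were chosen after their values were seen, as were the ribosomal protein list and the counting of Ndufa4 and Ndufa4l2 with complex I by name. The values of 1 member counted in the totals are not reported here, and it is not drawn in the plot of fold changes.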

Additional observations from a re-analysis of the deposited data

How the results depend on the processing

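The direction of the members was stable while the number of calls was not. The median log2 fold change of the members lay between −0.60 and −0.33 over the alternatives, and 57 of 65 members were lower in all of them. The 19 calls (29.2%, against 10.6% of all genes) became 6 with limma on unfiltered TPM (9.23%, against 2.36%). They were 33 without a filter on low counts (50.8%, against 7.33%) and 11 with the replicate block (16.9%, against 8.17%). With a library left out they ranged from 2 (3.08%, against 3.05% or 4.4%) to 32 (49.2%, against 15.1%). Of all genes, 14.6% were called lower with DESeq2 and 11.7% or 11.9% with filtered TPM. The share was 9.93% with the regional median removed and 7.92% with library totals. Calls of higher members, 0 with all libraries and the filter, were 1 with DESeq2, 1 with library totals alone, 2 without the filter and 0 to 1 with a library left out. For complex I, 10 calls became 6 with library totals, 3 with unfiltered TPM, 17 without the filter and 4 with the replicate block, ranging from 1 to 16 with a library left out. For complex II, 2 calls became 1 with library totals, with the regional median removed or with the replicate block, and 0 with unfiltered TPM, ranging from 0 to 3 with a library left out. For complex III, 4 calls became 2 with unfiltered TPM and ranged from 0 to 5 with a library left out. For complex IV, 3 calls became 7 with DESeq2 or filtered TPM, 1 with unfiltered TPM and 8 without the filter, ranging from 1 to 8 with a library left out. With Ndufa4 and Ndufa4l2 counted with complex I, the calls were 10 of 37 and 3 of 15.

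With a library left out, the Cox7a1 share difference ranged from −3.93 to 0.466 percentage points (0.0967 without KO2), the log2 fold change of Cox6a1 from −0.2369 to 0.0613 that of Cox6b1 from −0.3493 to 0.0528 and that of Cox7b from −0.2979 to 0.0563, each turned in the last value, and that of Cox6c, positive with all libraries, from −0.1149 to 0.2237. Cox6a1 was also at 0.0257 with library totals. Library totals alone moved the median of all genes to 0.15 against 0.03. The cause of these shifts was not tested. With unfiltered TPM, 27302 genes were tested, and with unfiltered counts 30252.

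Replicate numbers did not pair the libraries. Same-numbered libraries' deviations correlated at 0.137, −0.116 and 0.004 across genes, and the replicate block gave 11 calls among members and 8.17% of all genes lower. Depth limits Cox7b2, Cox4i2 and Cox6b2, for which 3 counts in a library is the floor.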

Other observations

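Genes for cytosolic ribosomal proteins, a set of short and abundant transcripts, were examined after the values of the members were seen. Of 78 tested, 20 (25.6%) were called lower in KO and 0 higher by edgeR, against 10.6% and 12.1% of all genes. At an unadjusted p under 0.05, 62 were lower and 0 higher, against 2745 and 3036 of all 14828 genes. Their median log2 fold change was −0.62, and in 65 genes every KO library lay below every WT library (83.3%, against 21.6% of all genes). Relative to the WT mean their median by replicate was −0.58, −0.29 and −1.02 in KO and 0.12, 0.02 and −0.14 in WT. KO3 was thus lowest in both sets, whereas WT2, the lowest WT library for the respiratory chain, was not the lowest for the ribosomal proteins.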
